A study of Mus musculus with 18 samples.

Results

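The 9 genes described here encode proteins of blood coagulation and of plasminogen activation: the cofactor factor V (F5), tissue factor (F3), the proteases factor VII (F7) and factor X (F10), the A subunit of factor XIII (F13a1), thrombomodulin (Thbd), urokinase (Plau), its receptor (Plaur) and plasminogen activator inhibitor 2 (Serpinb2). They were chosen by name, with values of these same arrays known, so their own levels and differences are given as a description and without a test. Earlier values of F5 and Plau in particular had been seen. Each gene had 1 row, and together they made up 9 of the 24705 rows with a gene symbol.

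The cells were mouse bone marrow-derived macrophages, which were grown from marrow with the growth factor M-CSF (30 ng/ml) for 4 days and then kept for 48 hours in medium in which 10% plasma took the place of fetal calf serum. RNA was taken on day 6. The plasma came from mice on a Western diet, a high-fat diet that promotes atherosclerosis, for 8 weeks. The WT group (4 arrays) received plasma of wild-type C57BL/6J mice, and the ApoE group (5 arrays) that of ApoE-KO mice on C57BL/6J, which lack the lipoprotein ligand apolipoprotein E. The AS1 group (3 arrays) received plasma of ApoE-Stab1-KO mice and the AS2 group (6 arrays) that of ApoE-Stab2-KO mice, which also lack the scavenger receptor stabilin-1 or stabilin-2. The knockouts are those of the plasma donors, not of the macrophages, so no gene measured here checks the labels. The labels do not say how many donor mice or cultures lie behind the arrays, nor whether plasma was pooled. The spread between arrays may therefore be technical, and every p-value measures only that spread.

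Values are log2 expression on an array-wide scale, so a difference of 1 is a change by a factor of 2. Within a group the arrays had a mean correlation of 0.994 to 0.997 over all rows. The mean over 7 measured macrophage markers was high in every group, from 11.07 to 11.58 over the 18 arrays. These markers moved too: for ApoE against WT 1 rose and 5 fell, for AS1 against ApoE 5 rose, for AS2 against ApoE 3 rose and 2 fell, and for AS2 against AS1 4 fell. Their part in the differences of the 9 genes was not tested. Markers of other marrow cells were also present and differed between groups, and their values stand beside the genes they bear on. Arrays record mRNA of the cultured cells, and coagulation proteins carried in with the plasma were not measured.

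Coagulation starts when tissue factor on a cell surface binds factor VIIa, which activates factor X. Factor Xa and its cofactor factor Va form the complex that makes thrombin, and factor XIIIa, a transglutaminase, cross-links the fibrin that thrombin produces. Thrombomodulin turns thrombin towards activation of protein C, which inactivates factor Va. Urokinase, held at the cell surface by its receptor, converts plasminogen to plasmin, which dissolves fibrin and cleaves matrix, and plasminogen activator inhibitor 2 is one of its inhibitors. Most coagulation factors in plasma come from the liver, while macrophages are known to make tissue factor, factor VII, factor X, factor XIII A subunit, urokinase and its receptor.

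Promoter windows of 300 bases, from 250 before to 50 after the start of the gene, were at hand for 7 of the 9 genes (RefSeq, GRCm38.p6). There were 9 such windows, since F13a1 and Serpinb2 each had an extra one. Those of F5, F7 and F10 are shown because these genes had the higher levels under ApoE plasma that parted under AS2 plasma, and because F7 and F10 lie next to each other on chromosome 8, followed by Proz. They are the windows chr1:164151585-164151884, chr8:13025784-13026083 and chr8:13037058-13037357, each on the plus strand, with matches to the searched motifs in capitals.
F5: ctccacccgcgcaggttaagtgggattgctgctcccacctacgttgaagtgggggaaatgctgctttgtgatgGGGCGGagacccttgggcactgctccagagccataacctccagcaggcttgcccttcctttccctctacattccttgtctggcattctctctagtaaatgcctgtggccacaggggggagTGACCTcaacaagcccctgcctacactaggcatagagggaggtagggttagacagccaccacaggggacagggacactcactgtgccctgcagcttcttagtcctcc
F7: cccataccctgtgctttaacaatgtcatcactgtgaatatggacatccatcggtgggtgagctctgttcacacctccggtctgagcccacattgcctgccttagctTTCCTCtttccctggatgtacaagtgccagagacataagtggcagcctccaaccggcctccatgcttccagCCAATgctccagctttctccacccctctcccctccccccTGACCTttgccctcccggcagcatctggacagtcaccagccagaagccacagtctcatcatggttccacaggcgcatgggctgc
F10: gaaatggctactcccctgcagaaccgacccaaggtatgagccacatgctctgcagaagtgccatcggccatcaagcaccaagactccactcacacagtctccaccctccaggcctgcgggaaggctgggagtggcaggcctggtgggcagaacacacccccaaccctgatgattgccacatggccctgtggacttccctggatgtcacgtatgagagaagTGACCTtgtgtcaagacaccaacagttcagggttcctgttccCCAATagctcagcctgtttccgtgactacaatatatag
Each of these windows holds TGACCT, the reverse complement of the AGGTCA core that nuclear receptors bind, with its first base at position -57 from the start in F5, -34 in F7 and -30 in F10. The remaining capitals mark GGGCGG (an Sp1 site) in F5, TTCCTC (the reverse complement of the PU.1 core GAGGAA) in F7, and CCAAT in F7 and F10. On either strand AGGTCA occurred in 3 of the 7 genes' windows and in 16.3% of all 32851 windows of this length. AP-1 sites (TGANTCA) occurred in 3 of the 7, namely F3, Plaur and Serpinb2, against 7.81% of all windows. CCAAT occurred in 4 of the 7 genes (37.4% of all windows), GAGGAA in 3 (28.3%), GGGCGG in 3 (35.7%) and TATAAA in 2 (13.6%). Neither CACGTG (7.15%) nor TGATGNAA (3.97%) was present in any of the 7. A gene was counted if any of its windows matched, while the percentages are of single windows. Count and percentage are therefore not alike for F13a1 and Serpinb2, which had an extra window. The motifs were picked after the levels and sequences had been seen, and a match is a run of letters, not a bound site.

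F5 was the gene of the 9 with the widest range. Its log2 level was 5.75, 6.00, 5.67 and 6.10 on the 4 WT arrays and 8.71, 8.87, 8.96, 9.36 and 8.70 on the 5 ApoE arrays. It was 8.69, 8.54 and 8.57 with AS1 plasma, and with AS2 plasma it ran from 5.60 to 6.09 with a median of 5.82. The arrays therefore fell into a low pair of groups, WT and AS2, whose ranges overlapped, and a high pair, ApoE and AS1, separated from the low pair by more than 2 log2 units on every array. F5 was higher by 3.04 ± 0.13 (SE) with ApoE than with WT plasma, an 8.20-fold difference, and lower by 3.10 ± 0.12 with AS2 than with ApoE plasma (8.58-fold lower). Of all 24705 rows this was the lowest difference for AS2 against ApoE, and the fourth highest for ApoE against WT. These comparisons share the ApoE arrays. AS2 and WT differed by -0.06 ± 0.13 and AS1 and ApoE by -0.32 ± 0.14, small beside those differences.

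Factor VII and factor X, the vitamin K-dependent proteases, had another order. F7 was at 5.77, 5.74, 5.39 and 5.59 with WT plasma, at 6.23, 6.85, 6.17, 6.50 and 6.35 with ApoE plasma and at 5.44, 6.14 and 5.83 with AS1 plasma. With AS2 plasma it ran from 6.67 to 7.42 with a median of 7.21, above every WT and AS1 array and overlapping the highest ApoE array. The group means were 5.62 ± 0.17 (SD, n = 4), 6.42 ± 0.27 (n = 5), 5.80 ± 0.35 (n = 3) and 7.11 ± 0.30 (n = 6) for WT, ApoE, AS1 and AS2. F7 was thus higher by 0.80 ± 0.17 (SE) with ApoE than with WT plasma, lower by 0.61 ± 0.19 with AS1 than with ApoE plasma, and higher by 0.69 ± 0.16 with AS2 than with ApoE plasma. The AS1 and ApoE arrays were only 0.03 apart. Without AS1 replicate 1 the difference for AS1 against ApoE was -0.43.

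F10 was at 5.30, 5.35, 5.39 and 5.32 with WT plasma, at 6.09, 6.29, 6.44, 6.35 and 6.27 with ApoE plasma and at 6.13, 5.92 and 6.46 with AS1 plasma. Its AS2 arrays ran from 6.22 to 7.12 with a median of 6.79. Every array with knockout plasma was above every WT array, while the ApoE, AS1 and AS2 ranges all overlapped one another. F10 was higher by 0.95 ± 0.14 (SE) with ApoE than with WT plasma and by 0.47 ± 0.12 with AS2 than with ApoE plasma, and AS1 and ApoE differed by -0.12 ± 0.15. F5 was therefore lower with AS2 than with ApoE plasma while the proteases F7 and F10 were higher.

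Tissue factor, which starts the cascade, was low and nearly flat. F3 was at 4.01, 3.90, 4.05 and 4.02 with WT plasma, 3.94, 3.96, 3.97, 4.00 and 4.00 with ApoE plasma, 3.88, 3.90 and 3.90 with AS1 plasma, and from 3.92 to 4.11 (median 4.05) with AS2 plasma. Its mean of 3.99 lay below the 40th percentile of row means, 4.10, where detection itself is in doubt. The group means of F3 spanned 0.14. Its AS1 arrays lay below all ApoE and AS2 arrays, with gaps of 0.03 and 0.01.

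**Figure D1:**
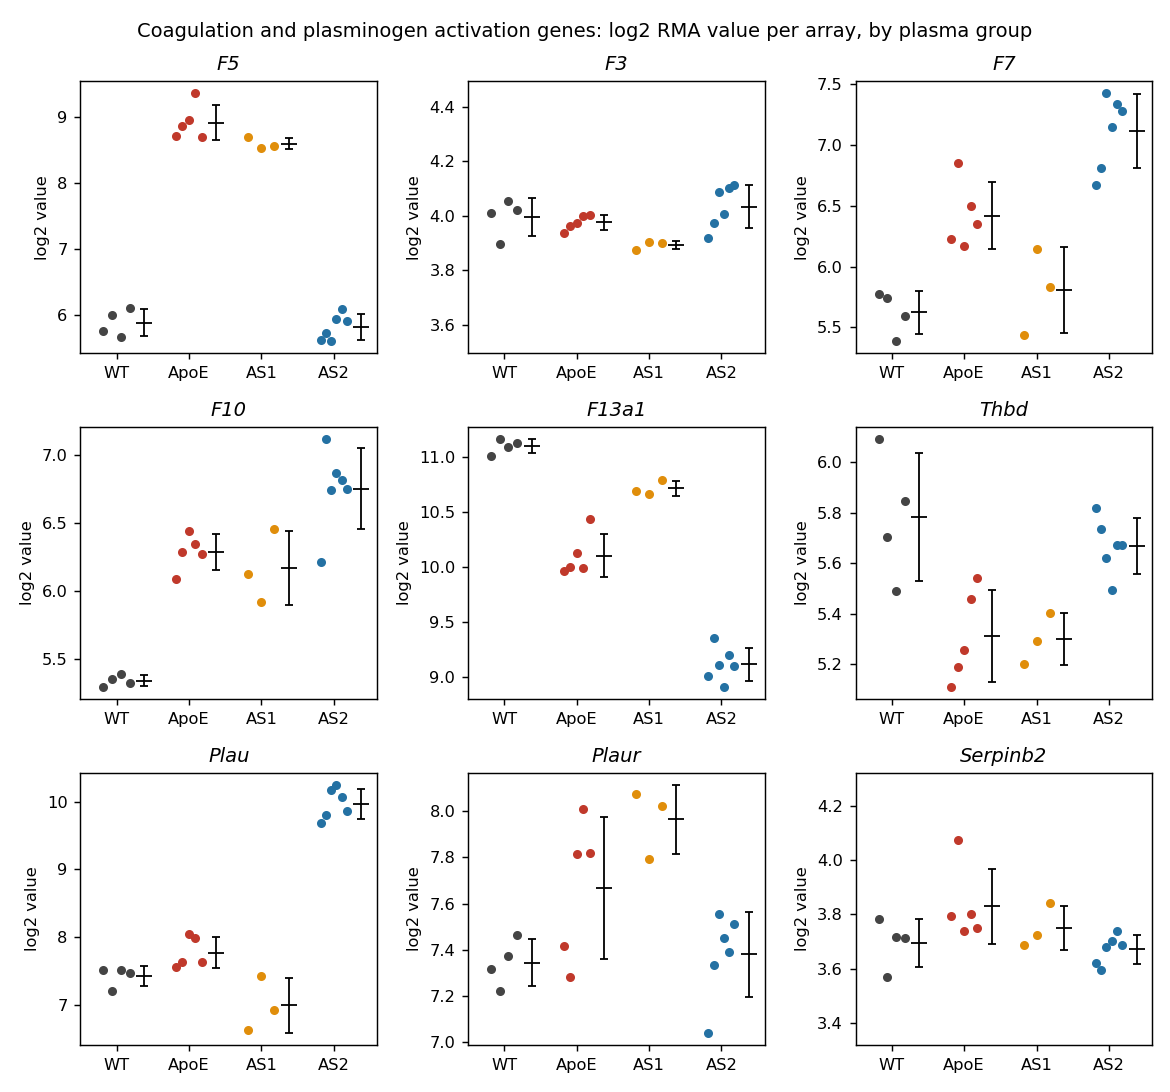
Log2 expression of the 9 genes on each array, grouped by the plasma given (WT 4, ApoE 5, AS1 3, AS2 6 arrays); points are arrays and the black mark with its bar is the group mean ± SD. The log2 axis differs between panels and does not start at 0. F5 is high with ApoE and AS1 plasma only, Plau with AS2 plasma only, and F3 and Serpinb2 are nearly flat and low.

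Factor XIII A subunit, which macrophages store inside the cell and which stabilises fibrin, was the most variable of the genes that were lower with ApoE plasma. F13a1 was at 11.01, 11.16, 11.09 and 11.12 with WT plasma and at 9.97, 10.00, 10.12, 9.99 and 10.43 with ApoE plasma. It was at 10.69, 10.66 and 10.79 with AS1 plasma and between 8.91 and 9.35 (median 9.10) with AS2 plasma. The 4 groups did not overlap, in the order WT, AS1, ApoE and AS2 from high to low. F13a1 was 1.99-fold lower with ApoE than with WT plasma (SE 0.09 on the log2 scale). It was lower by 0.99 ± 0.08 (SE) with AS2 than with ApoE plasma and higher by 0.61 ± 0.10 with AS1 than with ApoE plasma. From WT to AS2 plasma it was lower by 1.98 ± 0.09, a 3.96-fold difference. F13a1 is also a marker of monocytes, so the Ly6c-high monocyte list stands beside it: the mean of its 7 measured markers ran from 6.82 to 7.08 over WT arrays, 6.57 to 7.26 over ApoE, 7.93 to 8.05 over AS1 and 6.24 to 6.87 over AS2. With ApoE against WT plasma none of these 7 rose and 1, Ccr2, fell by 1.84 (limma adjusted p = 1.42e-08). With AS2 against ApoE plasma 1 rose and 3 fell, and with AS1 against ApoE plasma 6 rose and 1 fell. That list was highest with AS1 plasma and F13a1 with WT plasma, and its part in the F13a1 differences was not tested. In bulk RNA, fewer cells of a type and less RNA per cell cannot be told apart.

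Thrombomodulin, the endothelial and monocyte receptor that redirects thrombin, differed by little. Thbd was at 6.09, 5.70, 5.49 and 5.85 with WT plasma, 5.11, 5.19, 5.26, 5.46 and 5.54 with ApoE plasma and 5.20, 5.29 and 5.41 with AS1 plasma. Its AS2 arrays ran from 5.49 to 5.82 with a median of 5.67. Thbd was lower by 0.47 ± 0.11 (SE) with ApoE than with WT plasma and higher by 0.36 ± 0.10 with AS2 than with ApoE plasma, yet both pairs of groups overlapped.

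Urokinase differed most under AS2 plasma. Plau was at 7.51, 7.20, 7.52 and 7.46 with WT plasma, 7.55, 7.63, 8.04, 7.99 and 7.64 with ApoE plasma and 6.63, 7.42 and 6.92 with AS1 plasma. With AS2 plasma it ran from 9.68 to 10.24 with a median of 9.96. All 6 AS2 arrays lay at least 1.64 above the highest ApoE array, while AS1 was the lowest group. Plau was higher by 2.20 ± 0.14 (SE) with AS2 than with ApoE plasma and by 2.98 ± 0.16 with AS2 than with AS1 plasma, and lower by 0.78 ± 0.17 with AS1 than with ApoE plasma. These comparisons share arrays. Fibroblasts also make urokinase: the mean over the stromal markers ran from 4.16 to 4.34 on ApoE arrays and from 4.08 to 4.19 on AS2 arrays. Of its 6 markers 1, Col1a1, fell and none rose in that comparison, and the part of such cells in the Plau difference was not tested.

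The receptor had another order of groups, on a smaller scale. Plaur was at 7.32, 7.22, 7.37 and 7.46 with WT plasma, 7.41, 7.28, 7.81, 8.01 and 7.82 with ApoE plasma, 8.07, 7.79 and 8.02 with AS1 plasma, and between 7.04 and 7.55 (median 7.42) with AS2 plasma. Only AS1 stood apart from WT and AS2 on all arrays, and the ApoE range touched all 3 other groups. Plaur was higher by 0.62 ± 0.15 (SE) with AS1 than with WT plasma and lower by 0.58 ± 0.14 with AS2 than with AS1 plasma. For AS2 against ApoE it differed by -0.29 ± 0.12, with overlapping arrays. For ApoE against WT it differed by 0.32 ± 0.13, the same sign as Plau at 0.35 ± 0.15. The inhibitor Serpinb2 was at 3.78, 3.57, 3.72 and 3.71 with WT plasma, 3.79, 4.07, 3.74, 3.80 and 3.75 with ApoE plasma, 3.69, 3.72 and 3.84 with AS1 plasma and between 3.60 and 3.74 (median 3.68) with AS2 plasma. Its mean of 3.73 lay below the 40th percentile and its group means spanned 0.16.

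**Figure D2:**
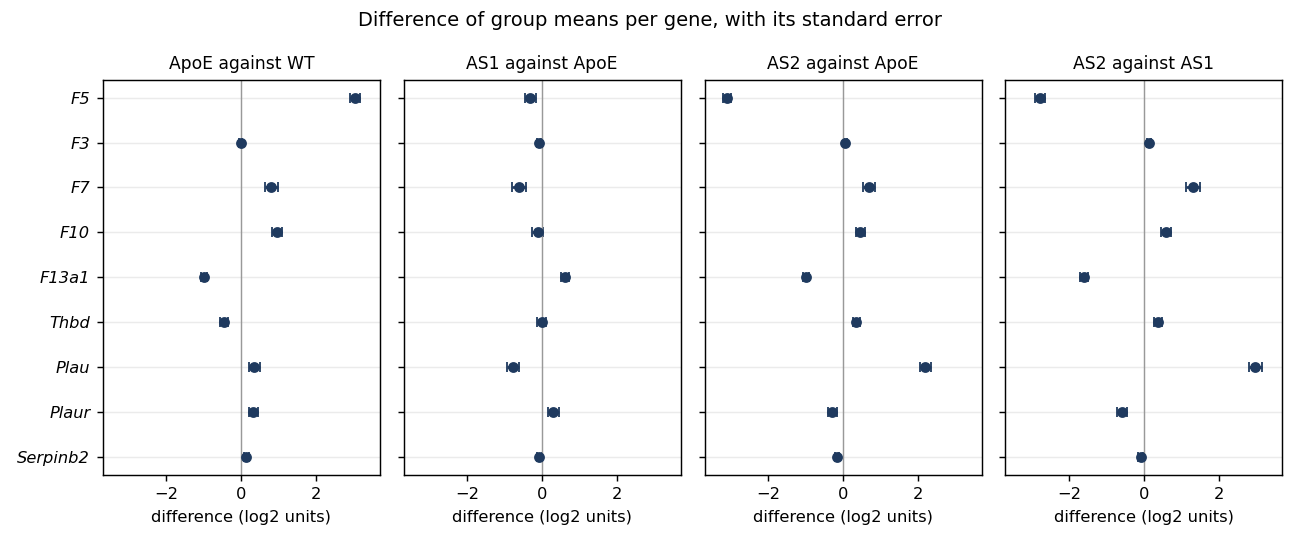
Differences in log2 expression (first group minus second, bar ± SE from the 4-group model) of the 9 genes in the comparisons between plasmas. F5 stands at 3.04 for ApoE against WT and -3.10 for AS2 against ApoE, and Plau at 2.20 for AS2 against ApoE.

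Of the 9 genes, 5 passed an adjusted p of 0.05 (limma, Benjamini-Hochberg over all rows) for ApoE against WT, beside 16.9% of all rows, and 5 had arrays that did not overlap between these groups, beside 14.3%. The same counts were 3 (16.5%) and 5 (18.2%) for AS1 against ApoE, 6 (15.6%) and 3 (10.9%) for AS2 against ApoE, and 8 (22.1%) and 7 (23.9%) for AS2 against AS1. For AS1 against WT they were 5 (9.48%) and 5 (18.1%), and for AS2 against WT 4 (17.8%) and 4 (17%). Without AS1 replicate 2 the count for AS2 against AS1 was 5, and without AS1 replicate 1 that for AS1 against WT was 2. F3, near the array floor, is in both counts for AS2 against AS1. It is also in the count of arrays that did not overlap for AS1 against ApoE. Its call for AS2 against AS1 was lost when any 1 AS1 array was left out. Since these genes were chosen with their values known, nothing is read from the counts. The median difference of the 9 genes lay between -0.08 and 0.32 over the 6 comparisons, and that of all rows at 0.00 or -0.01.

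Genes of like profile were sought among 19789 genes by the root mean square difference of mean-centred log2 values over the 18 arrays. For F5 the nearest were Cd33, a sialic acid-binding receptor, at 0.614, and the platelet integrin subunits Itgb3 at 0.644 and Itga2b at 0.692. Cd33 had means of 7.92, 9.52, 9.99 and 7.64 with WT, ApoE, AS1 and AS2 plasma. For Plau the nearest were Ccl2, a monocyte-attracting chemokine, at 0.317, Flrt2 at 0.322 and Cpe at 0.346. Ccl2 had means of 5.09, 5.93, 5.07 and 7.75 in the same order. F13a1 was nearest to Tcf7l2 (0.154), Ctla2b (0.175) and Ccr3 (0.246). F10 was nearest to Mcm2 (0.183), Nek2 (0.213) and Cdc25b (0.215), and F7 to Rassf8 (0.242), Zwilch (0.251) and Parpbp (0.255). When each array was left out in turn, all 3 nearest genes stayed the same in 63 of 90 cases, and in 1 case F7 kept none of its 3.

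Platelets store factor V, so megakaryocyte and platelet markers were set beside F5. Their mean over 8 measured markers ran from 6.05 to 6.21 on WT arrays, 6.37 to 7.12 on ApoE arrays, 7.19 to 7.39 on AS1 arrays and 5.58 to 5.85 on AS2 arrays. For ApoE against WT 6 of the 8 rose and 1, Pf4, fell. Itga2b rose by 1.46 ± 0.16 (SE; limma adjusted p = 2.39e-06), while Pf4 fell by 0.57 ± 0.15 (adjusted p = 0.0127). For AS2 against ApoE all 8 fell, Pf4 by 1.49 (adjusted p = 3.66e-07), and for AS1 against ApoE 4 rose. F5 and this list were both high with ApoE and AS1 plasma, but the list was highest with AS1 plasma, where F5 was no higher than with ApoE plasma. The part of these cells in the F5 difference was not tested. The mean over 4 measured hepatocyte markers, which stand for the main source of plasma factors, lay between 3.88 and 4.02 on all arrays, and none of the 4 was past the threshold of limma in any of the 6 comparisons, with at most 1 at an unadjusted p under 0.05.

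**Figure D3:**
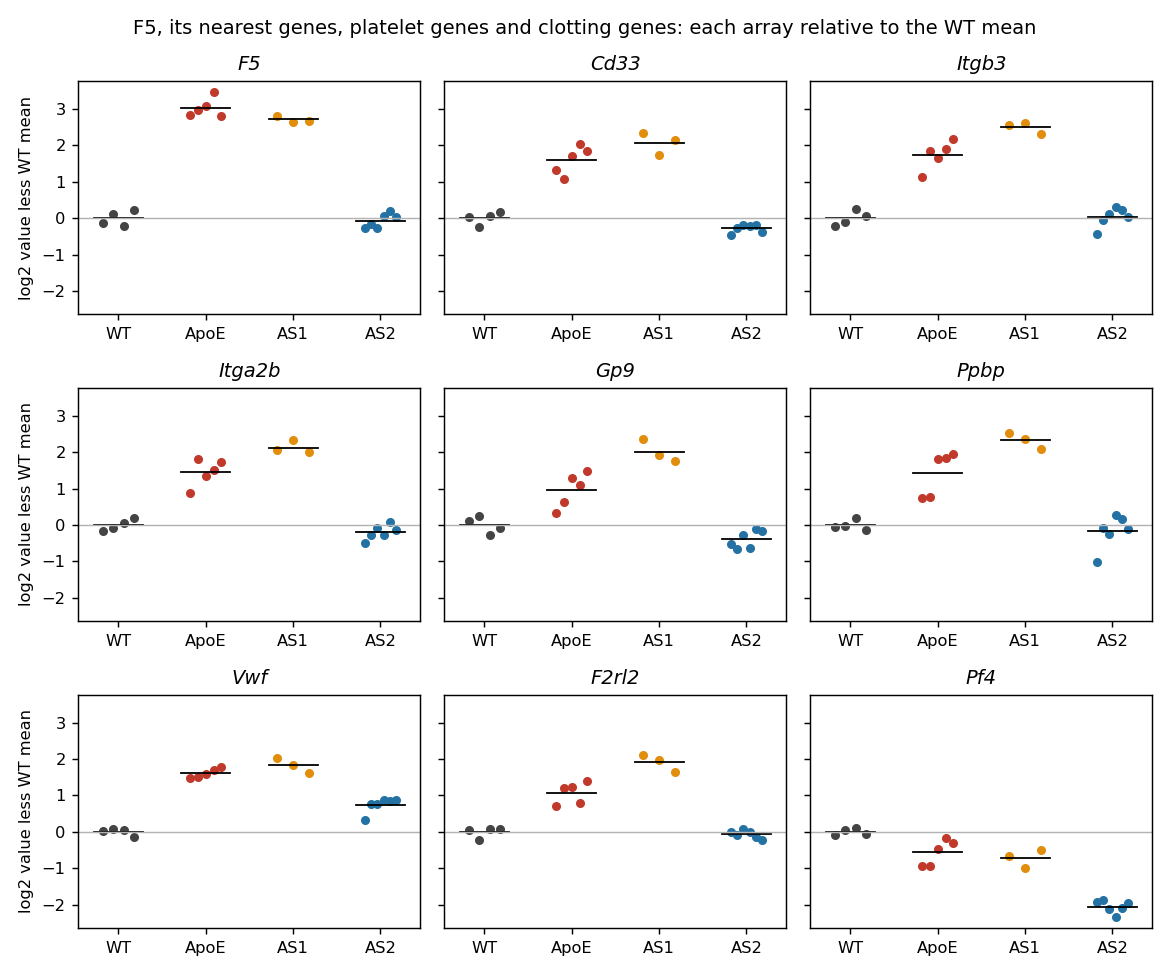
Log2 expression of F5, of its 3 nearest genes and of other platelet and coagulation genes on each array, less the mean of the WT arrays of that gene; points are arrays (WT 4, ApoE 5, AS1 3, AS2 6) and black lines are group means. F5 and F2rl2 lie at the WT level with AS2 plasma, Vwf stays above it, and Pf4 lies below it with every knockout plasma.

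Of the 68 other genes listed for these pathways, 63 were measured and 36 (57.1%) passed the threshold in at least 1 of the 4 main comparisons, beside 33.2% of all rows. For ApoE against WT 11 rose and 7 fell (28.6% of the 63, beside 16.9% of all rows), and for AS1 against ApoE 6 rose and 11 fell (27% beside 16.5%). For AS2 against ApoE 12 rose and 14 fell (41.3% beside 15.6%), and for AS2 against AS1 17 rose and 11 fell (44.4% beside 22.1%). With the AS1 and ApoE arrays fitted alone, 11 in place of 17 passed for AS1 against ApoE. The lists were chosen with earlier results of these data known, so nothing is read from these shares. The median difference of the 63 genes lay between -0.02 and 0.01 in these 4 comparisons, and that of all rows at 0.00. Among 12 other coagulation factors, Vwf, the carrier of factor VIII and a bridge for platelets, rose with ApoE plasma by 1.61 ± 0.10 (adjusted p = 9.11e-09) and was the single factor that passed there. With AS2 plasma Vwf was lower than with ApoE plasma by 0.87 ± 0.09 (adjusted p = 2.66e-06), at 5.97 against 5.23 with WT plasma. F9 rose by 0.27 ± 0.05 with AS2 against ApoE plasma (adjusted p = 0.000513), at a low mean of 4.08.

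In the protein C branch, Procr, the receptor that presents protein C, fell with ApoE plasma by 1.19 ± 0.09 (adjusted p = 7.38e-08) and rose with AS2 against ApoE plasma by 0.59 ± 0.08 (adjusted p = 5.55e-05). Pros1, the protein C cofactor protein S, fell by 0.58 ± 0.09 (adjusted p = 0.000122) and rose by 0.42 ± 0.08 (adjusted p = 0.00103). Thbd had the same signs. The mean over all 7 endothelial markers was 4.75 to 4.84 on WT arrays, 4.84 to 4.96 on ApoE arrays, 4.80 to 4.92 on AS1 arrays and 4.35 to 4.48 on AS2 arrays, and Cdh5 averaged 4.34, 4.40, 4.62 and 4.34. For ApoE against WT Kdr rose by 1.65 and Pecam1 fell by 0.57, and for AS2 against ApoE these 2 fell and none rose. The part of endothelial cells in the Procr, Pros1 and Thbd differences was not tested. Tfpi, the inhibitor of tissue factor and factor VIIa, rose with ApoE plasma by 0.45 ± 0.08 (adjusted p = 0.00076). It fell with AS1 against ApoE plasma by 0.52 ± 0.09 (adjusted p = 0.000519). F7 had these signs too, but with AS2 against ApoE plasma they parted. There F7 was higher by 0.69, while Tfpi was at 6.45 against 6.64 and did not pass the threshold.

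Among the protease-activated receptors, F2rl2, the cofactor for thrombin cleavage of other receptors, rose with ApoE plasma by 1.06 ± 0.13 (adjusted p = 1.09e-05) and again with AS1 against ApoE plasma by 0.85 ± 0.14 (adjusted p = 0.000351). It fell with AS2 against ApoE plasma by 1.13 ± 0.12 (adjusted p = 1.66e-06), to 5.72 beside 5.78 with WT plasma. Lman1 and Mcfd2 form the cargo receptor that carries factor V and factor VIII out of the endoplasmic reticulum. Lman1 rose with ApoE plasma by 1.05 ± 0.08 (adjusted p = 4.6e-08), fell with AS1 against ApoE plasma by 0.99 ± 0.09 (adjusted p = 1.22e-06) and fell with AS2 against ApoE plasma by 0.57 ± 0.07 (adjusted p = 1.3e-05). Mcfd2 rose by 0.69 ± 0.14 (adjusted p = 0.00212) and fell by 0.91 ± 0.16 (adjusted p = 0.000491) and 0.79 ± 0.13 (adjusted p = 0.000266) in the same comparisons. Both were low with AS1 plasma, where F5 was high, and their part in the F5 levels was not tested. Of the 6 genes of their list, 3 rose and 1, Furin, fell for ApoE against WT. For AS1 against ApoE Furin rose and 3 fell, and for AS2 against ApoE 3 fell and none rose.

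At the cell surface, the plasminogen-binding pair S100a10 and Anxa2 rose together with AS2 plasma. S100a10 rose against ApoE plasma by 1.21 ± 0.10 (adjusted p = 1.13e-07) and Anxa2 by 0.76 ± 0.05 (adjusted p = 6.8e-09). Lrp1, which clears urokinase bound to its inhibitor, rose by 0.27 ± 0.05 (adjusted p = 0.000683), and Plgrkt, a plasminogen receptor, fell by 0.40 ± 0.08 (adjusted p = 0.00167). None of the 5 measured genes of the list of plasminogen, its other activator and inhibitors passed limma's threshold in any of these 4 comparisons, and 1 had an unadjusted p under 0.05, for AS2 against ApoE. The 5 other listed genes of these pathways were not analysed here.

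Tgm2, the tissue transglutaminase, ran against F13a1 in ApoE plasma, rising by 1.13 ± 0.11 (adjusted p = 7.84e-07), and fell with AS2 against ApoE plasma by 1.02 ± 0.10 (adjusted p = 6.63e-07). In the clade B serpins, the family of Serpinb2, Serpinb10 lies next to Serpinb2 in the gene order and rose with ApoE plasma by 0.91 ± 0.21 (adjusted p = 0.00523) while Serpinb2 was low in all groups. Serpinb10 fell with AS2 against ApoE plasma by 1.43 ± 0.19 (adjusted p = 2.85e-05) and Serpinb1a by 0.75 ± 0.14 (adjusted p = 0.000715), while Serpinb6b rose by 1.48 ± 0.16 (adjusted p = 1.88e-06). Serpinb1a and Serpinb10 are made in neutrophils and their precursors. The mean over 11 neutrophil markers was 7.73 to 8.13 on WT arrays, 7.60 to 8.79 on ApoE arrays, 9.52 to 9.75 on AS1 arrays and 7.04 to 7.78 on AS2 arrays. For ApoE against WT 2 of the 11 rose and 1 fell. All 11 rose with AS1 against ApoE plasma, where Serpinb10 and Serpinb1a rose too, and 5 fell with AS2 against ApoE plasma. The part of those cells in the serpin differences was not tested.

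**Figure D4:**
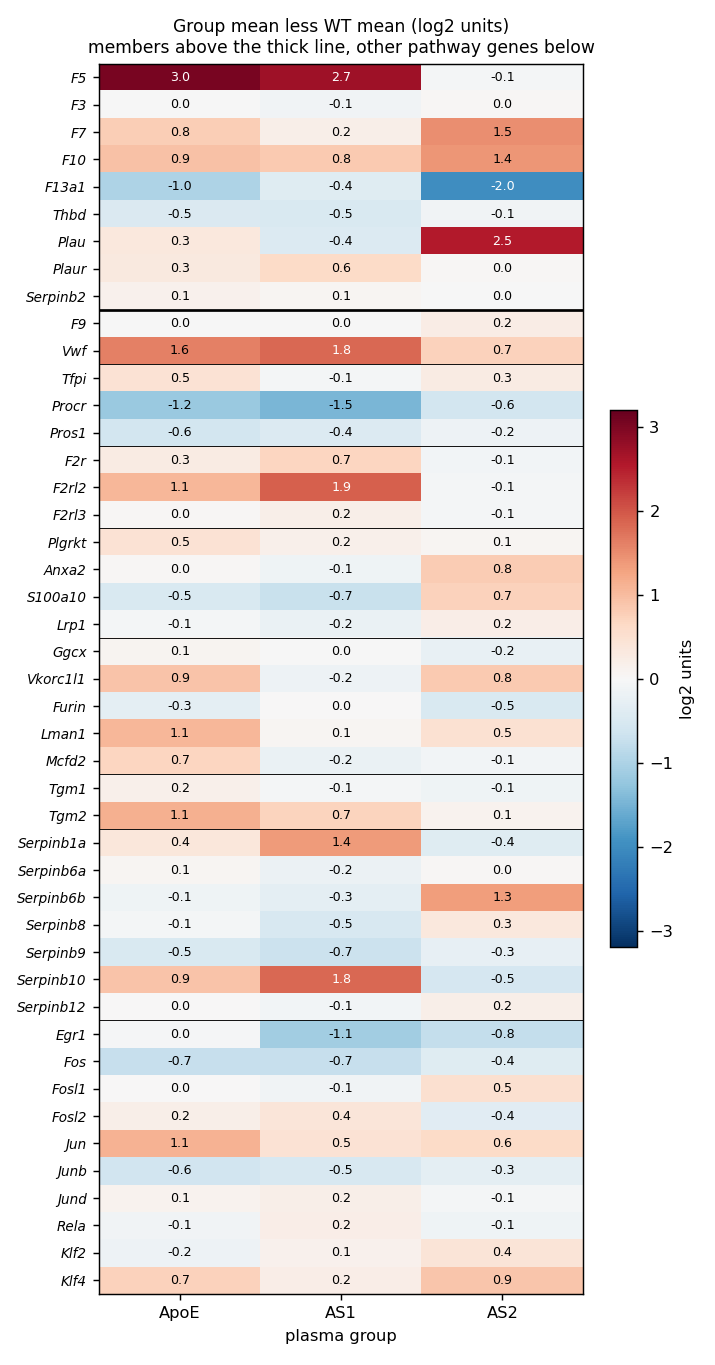
Group mean less WT mean in log2 units (colour and printed value) with ApoE, AS1 and AS2 plasma, for the 9 genes above the thick line and, below it, the 36 other pathway genes past the threshold in at least 1 of the 4 main comparisons; thin lines part the lists. F5, Vwf and F2rl2 are positive with ApoE and AS1 plasma, and Vwf is also positive with AS2 plasma (0.74). Plau, S100a10, Anxa2 and Serpinb6b are positive with AS2 plasma. With ApoE plasma Plau is also positive, at 0.35, and Anxa2 is at 0.04.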

How the data were processed

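Gene expression was measured on 18 Affymetrix arrays of biotin-labelled cRNA. The deposited values are log2 expression from RMA (background correction, quantile normalisation and probe summary), per the submitters' processing notes; no version of it, and no probe set definition, was found in the labels. The sorted values of 17 arrays were equal and those of ApoE replicate 1 differed by at most 0.0019, so differences in the total RNA of a cell are not visible. The table held 25428 rows, of which 24705 had 1 gene symbol and 723 had none; names come from the platform annotation. Arrays carry no count of reads, and their number limits the precision.

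All rows with a symbol were fitted with limma 3.58.1 in R 4.3.3 (lmFit and eBayes, 4 group means over all 18 arrays, 14 residual degrees of freedom), and p-values were adjusted by Benjamini-Hochberg over all of them with a threshold of 0.05. The fit was tested on simulated data. The 9 genes, the pathway lists and the marker lists were chosen with earlier results of these data known. Pathway genes past the threshold in ApoE against WT, AS1 against ApoE, AS2 against ApoE or AS2 against AS1 could be named. Genes of like profile were the 3 with the smallest root mean square difference, for members whose group means spanned at least 1. Alternatives were fits of 2 groups alone, each array centred or quantile-normalised again, other sets of rows, array weights, a trended and robust variance, filters on low rows, the replicate number as a block and leaving out arrays. Promoters are from RefSeq (GRCm38.p6), searched on both strands.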

Additional observations from a re-analysis of the deposited data

Results flagged for a closer look

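Among 27 groups of 4 to 10 arrays of the 9 genes, 1 held an array far from the others: Serpinb2 was at 4.07 on ApoE replicate 2, and its gap to the nearest array was 0.810 of the group's range, above the critical value of 0.71. Chance alone gives such an array in about 1 in 20 groups, and the Serpinb2 row lay below the 40th percentile of row means.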

How the results depend on the processing

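The differences of the 9 genes moved by less than 1 SD between arrays under all 1500 alternative values computed, and none past the threshold changed sign. Of the 54 differences, 5 near 0 took the other sign in 10 of these values: F10 and Thbd for AS1 against ApoE, and F5, Plaur and Serpinb2 for AS2 against WT, with values between -0.01 and 0.04. Leaving out 1 array cannot move a difference by 1 SD. Fits of 2 groups alone, other sets of rows and another variance model leave the group means as they are. The bound of 1 SD could therefore hardly be passed, and nothing is read from it. Of the 504 counts recomputed, 501 stayed within 1.5 times. With the 2 groups fitted alone, 11 pathway genes in place of 17 passed for AS1 against ApoE. With each array left out in turn, members past the threshold numbered 5 to 8 for AS2 against AS1 and 2 to 5 for AS1 against WT. The nearest genes changed in 27 of 90 cases. The replicate numbers of the labels did not pair the arrays: 4 of 22 same-numbered pairs correlated above 0.1, with a range of -0.207 to 0.133, and in 4 the own number was highest. With the number as a replicate block, 5 members passed for ApoE against WT, 3 for AS1 against ApoE, 6 for AS2 against ApoE and 6 for AS2 against AS1, in place of 5, 3, 6 and 8. Levels near the array floor, as of F3 and Serpinb2, limit what a small difference can show.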

Other observations

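Of 11 transcription factors known at promoters of these genes, 10 (90.9%) passed the threshold in at least 1 of the 4 main comparisons, beside 33.2% of all rows. This list too was chosen with earlier results of these data known, so nothing is read from that share. Jun rose with ApoE plasma by 1.11 ± 0.17 (SE; limma adjusted p = 0.000134) and Klf4 by 0.75 ± 0.15 (adjusted p = 0.00165), while Fos fell by 0.73 ± 0.07 (adjusted p = 1.23e-06). With AS2 against ApoE plasma 4 of the 11 rose and 4 fell. The AP-1 subunits went both ways: Fosl1 rose by 0.51 ± 0.07 (adjusted p = 5.72e-05), Fos by 0.35 ± 0.07 (adjusted p = 0.00098) and Junb by 0.31 ± 0.08 (adjusted p = 0.0143), while Fosl2 fell by 0.57 ± 0.08 (adjusted p = 4.43e-05), Jun by 0.51 ± 0.16 (adjusted p = 0.0315) and Jund by 0.18 ± 0.04 (adjusted p = 0.00758). The call of Jun was lost when any 1 of ApoE replicates 1, 3 and 4 and AS2 replicates 1, 2, 5 and 6 was left out (adjusted p = 0.0532 to 0.0977), and that of Junb with the replicate number as a block. Klf2, a regulator of Thbd in endothelium, rose by 0.58 ± 0.08 (adjusted p = 3.62e-05) in that comparison. Egr1 fell with AS1 against ApoE plasma by 1.07 ± 0.22 (adjusted p = 0.00244). It was also the other factor that fell with AS2 against ApoE plasma, at 4.93 against 5.65.

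Replicate 1 was the lowest array of its group for 5 of the 9 genes in AS2 (F3, F7, F10, Plau and Plaur), for 5 in ApoE and for 5 in AS1. In WT it was the lowest for 2 and the highest for 3. Replicate 2 was the lowest for 4 in AS1 and for 4 in WT. The same counts over all rows were not made, so nothing is read from these. The labels name no batch.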
